A study of Homo sapiens with 24 samples.

Results

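The 10 genes described here are interferon-stimulated effectors: IFI27, IFI6, IFI44, IFI44L, IFI35, MX1, MX2, RSAD2, BST2 and XAF1. They were taken by name from a table of 55773 gene names, each had 1 row at 1 place in the genome, and all 10 were among the 20147 genes that passed the filter on low counts, IFI44L and XAF1 only through the groups in which they were high. RNA was sequenced from U937, a human myelomonocytic line, in 24 libraries, 3 in each of 8 groups. The inhibitor arm held cells given UNC0638 at 2 or 4 µM, a small molecule that blocks the histone methyltransferase G9a and its partner GLP and was given for 3 days, and DMSO as the vehicle. The knockdown arm held cells carrying a lentiviral hairpin against G9a (hairpins 2 and 3), a hairpin against SUV39H1, another histone H3 methyltransferase (hairpins 2 and 4), or a scrambled hairpin. Knockdown cells were kept in puromycin for 3 days. The labels give no harvest day for DMSO and no selection for scrambled, so whether either control was handled like the groups set against it is not known, and across the arms treatment and handling cannot be told apart. They do not say that libraries of a group came from separate cultures, so p-values measure the spread between these libraries, which may be technical.

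Libraries held 31545854 to 53803704 counts. Levels are given in CPM, counts per 1000000 counts of the library. EHMT2, the gene of G9a, averaged 72.6 ± 2.70 and 71.6 ± 3.51 CPM with G9a hairpins 2 and 3, against 139.6 ± 8.75 CPM with scrambled (SD, n = 3 each). SUV39H1 averaged 19.3 ± 0.404 and 22.4 ± 1.85 CPM with its hairpins 2 and 4, against 56.5 ± 1.52 CPM with scrambled. EHMT2 averaged 112.1 ± 1.82 and 136.4 ± 2.22 CPM with SUV39H1 hairpins 2 and 4. The hairpin 4 libraries, at 134.1 to 138.5 CPM, overlapped scrambled, at 134.2 to 149.7 CPM. With TMM scaling, the log2 fold changes of EHMT2 against scrambled were -0.41 and -0.16 (adjusted p = 3.82e-06 and 0.0295, edgeR). Of 12 myelomonocytic markers, 11 averaged at least 1 CPM, and none of 4 T-cell, 2 NK-cell, 3 erythroid, 4 epithelial or 3 fibroblast markers did. The B-cell marker CD79A also averaged at least 1 CPM. The summed myelomonocytic markers ran from 5700.4 to 5883 CPM with SUV39H1 hairpin 2, from 4424 to 4464 with its hairpin 4, from 3931 to 4205 over the G9a hairpins and from 2792 to 2961 with scrambled, and from 2521 to 2820.3 CPM in DMSO, 2128 to 2242 at 2 µM and 1926 to 2066 at 4 µM. CD79A ran from 3.31 to 4.17 CPM over the G9a hairpins, from 10.5 to 11.3 with SUV39H1 hairpin 2, from 14.8 to 16.4 with its hairpin 4 and from 16.2 to 19.3 with scrambled, and from 21.4 to 25.6 CPM in DMSO, 14.9 to 16 at 2 µM and 13.6 to 15.4 at 4 µM. These markers moved with the groups compared below, and their part in the results was not tested.

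Type I interferon binds the receptor pair IFNAR1 and IFNAR2, whose kinases JAK1 and TYK2 activate STAT factors, and these join IRF9 in a complex that binds the interferon-stimulated response element in the promoters of its targets. The genes described here are such targets. IFI27 and IFI6 encode small hydrophobic proteins of 1 family found at mitochondria and the endoplasmic reticulum, IFI44 and IFI44L are neighbouring paralogs with antiviral activity, and IFI35 encodes a leucine-zipper protein that binds NMI. MX1 and MX2 are dynamin-like GTPases that block viruses at different steps, RSAD2 (viperin) makes a chain-terminating nucleotide, BST2 (tetherin) holds budding virions at the cell surface, and XAF1 is a pro-apoptotic partner of XIAP.

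Because all 10 are known as interferon targets, their promoters were read for the response-element core, GAAA repeated after any 2 bases, on either strand, in RefSeq windows of 250 bases before to 50 bases after each start (GRCh38.p14). Windows were found for 9 of the 10 genes, 15 in all, and 7 genes held the core in at least 1 window. By comparison, 3.57% of 35116 windows and 4.38% of 27305 genes in the same table held it. The stretches below show the cores found in IFI27, IFI6, IFI44, IFI44L, RSAD2 and BST2, with the core, or its reverse complement, in capitals. For IFI44L the stretch spans a repeat, and the cores of MX1 are not shown.
IFI27: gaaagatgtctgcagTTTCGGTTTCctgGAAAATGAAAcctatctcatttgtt
IFI6: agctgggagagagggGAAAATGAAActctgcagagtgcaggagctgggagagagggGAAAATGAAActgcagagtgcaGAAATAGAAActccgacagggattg
IFI44: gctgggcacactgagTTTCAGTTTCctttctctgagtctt
IFI44L: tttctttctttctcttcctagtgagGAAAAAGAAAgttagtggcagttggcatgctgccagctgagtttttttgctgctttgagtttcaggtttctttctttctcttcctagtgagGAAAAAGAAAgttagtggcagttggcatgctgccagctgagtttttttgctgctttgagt
RSAD2: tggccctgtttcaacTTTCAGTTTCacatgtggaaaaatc
BST2: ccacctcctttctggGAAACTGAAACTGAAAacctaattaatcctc

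The stretches lie at chr14:94110613-94110665 (plus strand) for IFI27, chr1:27672261-27672363 (minus) for IFI6, chr1:78649756-78649795 (plus) for IFI44, chr1:78620259-78620434 (plus) for IFI44L, chr2:6877617-6877656 (plus) for RSAD2 and chr19:17405730-17405775 (minus) for BST2. The IFI6 window held 3 cores, a number met in 0.037% of all windows, and IFI27, IFI44L and BST2 held 2, which 0.259% of windows reached or passed. In IFI27 the 2 cores stand on opposite strands, and in BST2 they overlap. The IFI44L stretch is an 85-base sequence followed, 6 bases later, by an exact second copy, each with 1 core, from base -189 to base -14 relative to the start. In IFI6 a 29-base stretch recurs 41 bases further on, again with a core in each copy. In MX1, 2 of 3 windows held 1 core each, 1 of them after the start, and 1 of 2 RSAD2 windows held the one shown. No core was found in the windows of IFI35 and XAF1, and MX2 had no window in the table. The core of the gamma-activated site, TTCNNNGAA, stood in windows of 4 genes (IFI27, IFI35, MX1 and BST2) and in 9.38% of all genes, and in IFI27, MX1 and BST2 it overlapped a response-element core. A match is a string of letters in a window, and binding was not measured.

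**Figure D1:**
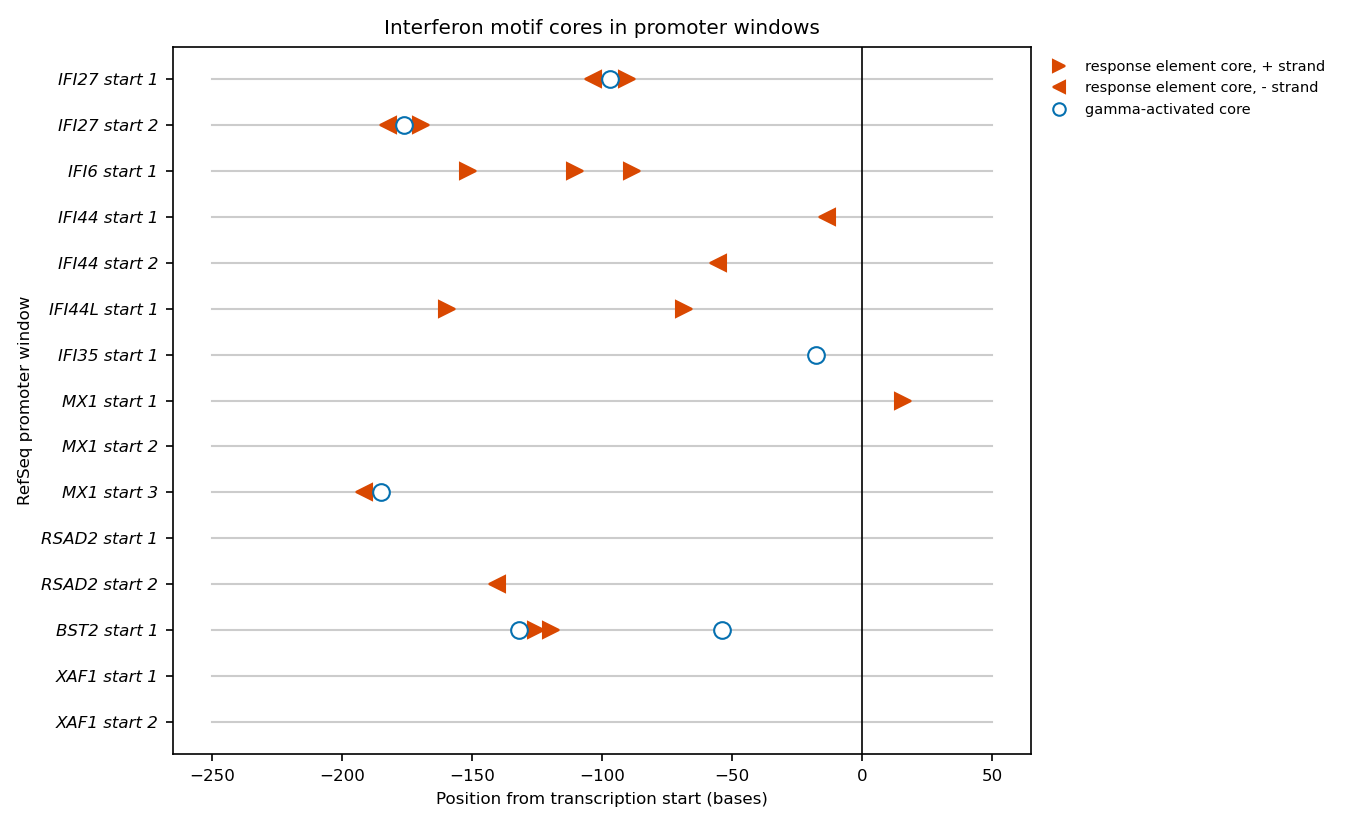
Positions of motif cores in the 15 RefSeq promoter windows of 9 genes; the x axis gives the distance from the transcription start in bases, each grey line is 1 window, filled triangles are response-element cores pointing along their strand and open circles are gamma-activated cores. IFI6 held 3 response-element cores, IFI27, IFI44L and BST2 2, and the windows of IFI35 and XAF1 none.

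At 4 µM UNC0638, 8 of the 10 genes rose against DMSO, none fell and MX1 and XAF1 were not called (edgeR quasi-likelihood test, Benjamini-Hochberg adjusted p under 0.05 over all genes). Over all genes tested, 10.2% rose and 9.73% fell. The median log2 fold change of the 10 genes was 1.42, against -0.0059 over all genes. At 2 µM, 6 of the 10 rose and none fell, where 3.83% of all genes rose and 3.34% fell, and the median of the 10 was 0.66. Between the doses, the same test of 4 µM against 2 µM called 6 genes higher (IFI27, IFI6, IFI44, IFI44L, IFI35 and BST2) and none lower, with 1.39% of all genes higher and 0.452% lower. The comparisons of each dose with DMSO share their controls. IFI44L, called in each, passed the filter on low counts only through the groups in which it was high.

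The SUV39H1 hairpins gave the largest median changes of the comparisons with a control. Against scrambled, 9 of the 10 rose with hairpin 2 and MX2 fell, in a comparison where 34.5% of all genes rose and 32.6% fell. With hairpin 4, 8 rose, MX2 fell and BST2 was not called, where 31.8% rose and 29.2% fell. The mean of both hairpins gave 9 higher and 1 lower, with 35.1% of all genes higher and 32.7% lower. These counts include IFI44L and XAF1, which passed the filter on low counts only through the groups in which they were high. The median log2 fold change of the 10 genes was 3.33 for hairpin 2 and 1.76 for hairpin 4, against 0.020 and 0.031 over all genes. Scaling by library totals alone, without TMM, shifted the median of all genes to between 0.11 and 0.159 in the comparisons of SUV39H1 hairpins with scrambled.

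The 2 SUV39H1 hairpins differed from each other in 9 of the 10 genes, all higher with hairpin 2. The 9 include IFI44L, which passed the filter on low counts only through the groups in which it was high. They also include XAF1, which was kept only because of the hairpin 2 libraries. Over all genes, 20.9% were higher and 22% lower with hairpin 2 than with hairpin 4. The median difference of the 10 genes was 1.32 on the log2 scale. MX2 alone was not called, at 0.02 with a 95% interval of -0.06 to 0.11.

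With the G9a hairpins, members were called in both directions, as all genes were, so a split in direction is not particular to them. Against scrambled, the mean of both hairpins gave 2 genes higher, IFI35 and RSAD2, 5 lower (IFI6, IFI44, IFI44L, BST2 and XAF1) and 3 not called, where 25% of all genes rose and 24.9% fell. The median log2 fold change of the 10 was -0.103, and the same with XAF1, at 0 counts with both hairpins, set to the limit of 3 counts. Hairpin 2 gave 2 higher and 4 lower, with 22.1% of all genes higher and 22.3% lower. Hairpin 3 gave 2 higher and 5 lower, with 22.6% higher and 22.1% lower. The lower calls of IFI44L and XAF1 rest on few counts: IFI44L had 1 count with hairpin 2 and 0 with hairpin 3 in 3 libraries each, against 6 with scrambled, and XAF1 had 0 and 0 against 5. Without G9a hairpin 3 replicate 3 or without scrambled replicate 2, the 7 calls for hairpin 3 came to 4, with IFI44, IFI44L and XAF1 lost. None of the 10 was called between G9a hairpins 2 and 3 by edgeR (0 also at an unadjusted p under 0.05) or by DESeq2, in a contrast that called 0.00496% of all genes higher and 0.00496% lower by edgeR.

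Set against each other, the G9a hairpins were below the SUV39H1 hairpins in 9 of the 10 genes, where 32.6% of all genes were lower and 32.9% higher. The 9 include IFI44L and XAF1, which passed the filter on low counts only through the groups in which they were high. With each G9a hairpin these 2 genes held 0 or 1 counts. MX2 was the exception, higher by 0.08 ± 0.028 (SE; adjusted p = 0.0147, edgeR), but at -0.015 and not called when libraries were scaled by their totals alone.

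**Figure D2:**
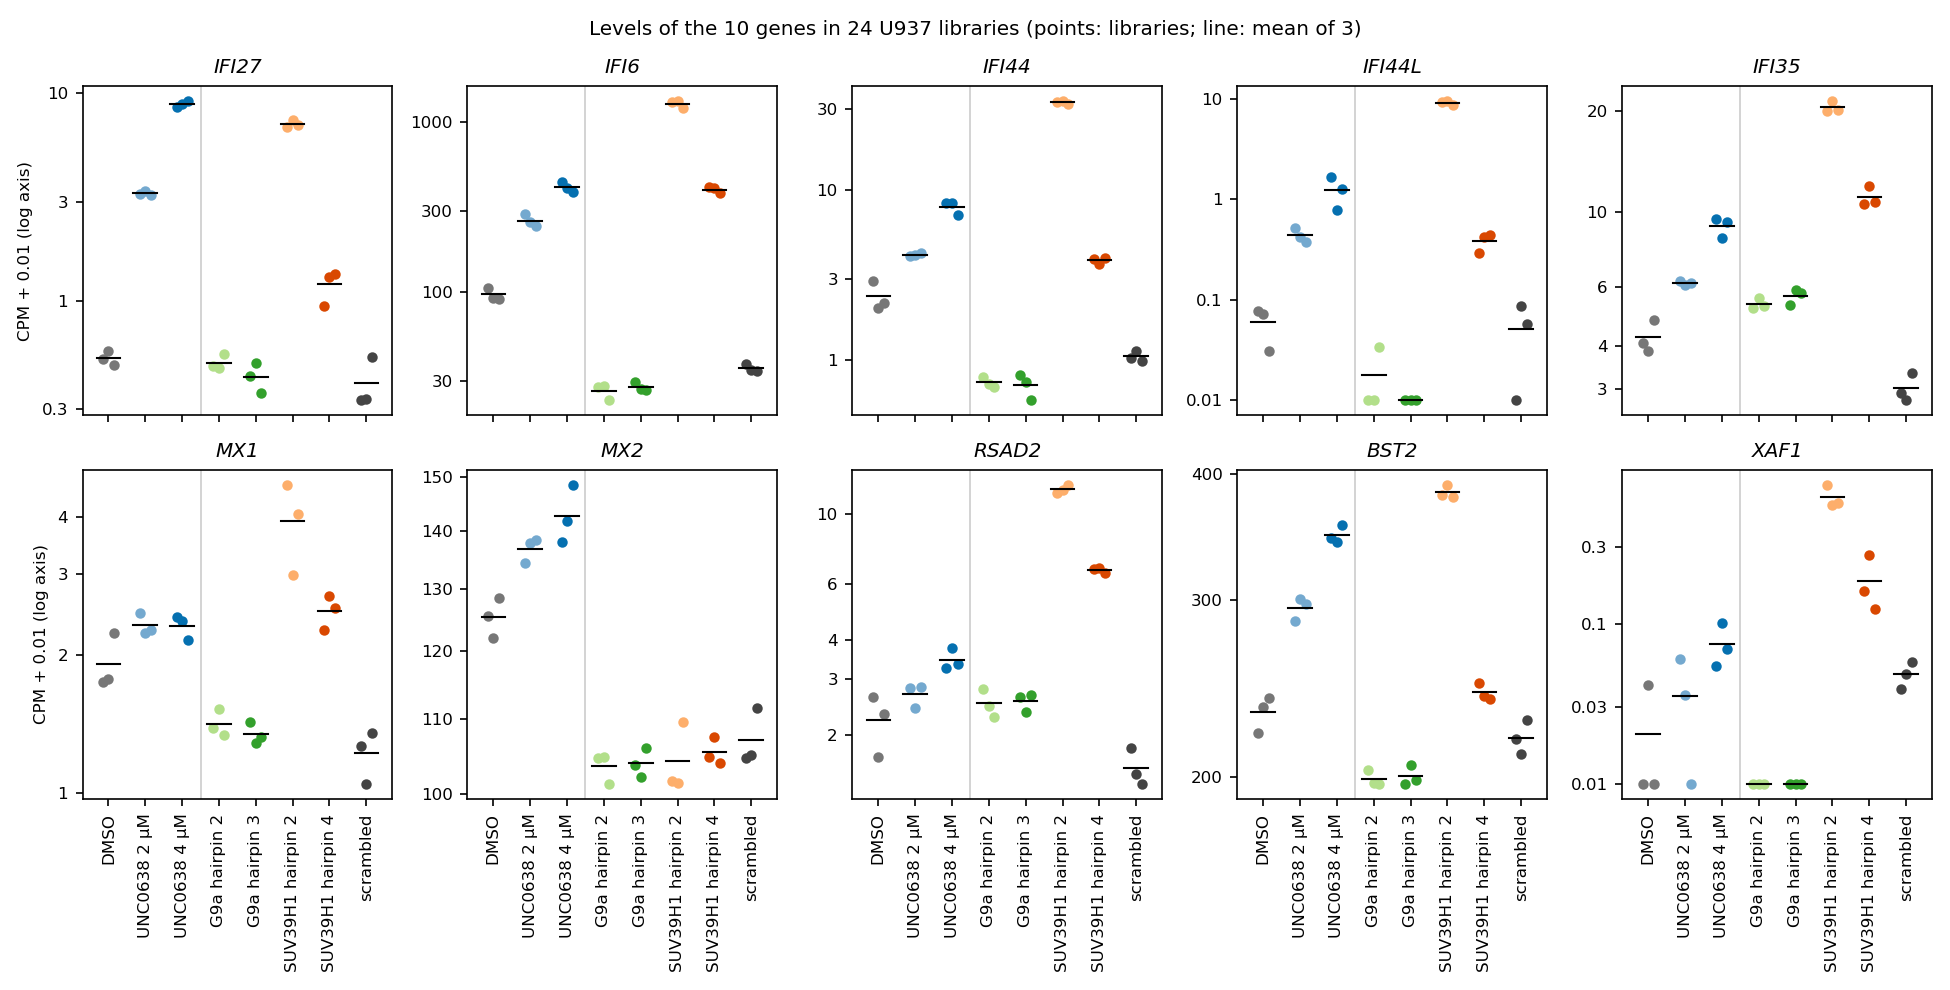
CPM of each gene in every library (y axis, logarithmic, with 0.01 CPM added so that libraries at 0 can be drawn); points are libraries and lines the mean of 3. The grey line parts the inhibitor arm from the knockdown arm, and SUV39H1 hairpin 2 stands highest in 8 of 10 panels, with IFI27 and MX2 higher at 4 µM.

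IFI27 (hg19, chr14:94571182-94583033, plus strand) had the largest fold change at 4 µM among the 8 members with more than 10 counts in each DMSO library. It stood at 0.517, 0.565 and 0.481 CPM in DMSO, 3.26, 3.35 and 3.24 CPM at 2 µM, and 8.57, 8.86 and 9.15 CPM at 4 µM. The 3 groups did not overlap, and the log2 fold change over DMSO was 2.66 ± 0.14 at 2 µM and 4.10 ± 0.12 at 4 µM (SE; adjusted p = 2.53e-13 and 1.17e-19, edgeR). SUV39H1 hairpin 2 gave 6.86, 7.42 and 7.03 CPM and hairpin 4 gave 0.929, 1.29 and 1.34 CPM, against 0.321, 0.326 and 0.526 CPM with scrambled. Hairpin 4 thus gave 1.45 ± 0.18 on the log2 scale where hairpin 2 gave 4.08 ± 0.13. The G9a hairpins, at 0.474, 0.463 and 0.544 CPM for hairpin 2 and 0.424, 0.49 and 0.349 CPM for hairpin 3, overlapped scrambled, and the log2 fold change of their mean was 0.20 with a 95% interval of -0.21 to 0.62. In order of its mean level, IFI27 was highest at 4 µM, then with SUV39H1 hairpin 2, at 2 µM and with SUV39H1 hairpin 4, and the remaining groups overlapped their neighbours.

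IFI6 (hg19, chr1:27992572-27998729, minus strand), from the same family, was the most abundant of the 10 per length with SUV39H1 hairpin 2, at 1476 CPM per kilobase. Its libraries held 1301, 1327 and 1202 CPM with SUV39H1 hairpin 2 and 411, 408 and 380.2 CPM with hairpin 4, against 37.7, 34.9 and 34.1 CPM with scrambled. The log2 fold changes were 5.08 ± 0.079 and 3.36 ± 0.074 (SE; adjusted p = 4.08e-26 and 3.16e-22, edgeR). It rose with dose in the inhibitor arm, from 106, 92.6 and 91.3 CPM in DMSO through 288, 256 and 244 CPM at 2 µM to 443, 406 and 386 CPM at 4 µM. No library of 1 dose reached into the next, and the log2 fold change over DMSO was 1.44 ± 0.068 at 2 µM and 2.10 ± 0.069 at 4 µM. With the G9a hairpins it fell, to 27.7, 27.8 and 23 CPM for hairpin 2 and 29.6, 26.9 and 26.7 CPM for hairpin 3, below every scrambled library, by 0.41 on the log2 scale for the mean (SE 0.065, adjusted p = 6.89e-06, edgeR). SUV39H1 hairpin 4 and the 4 µM dose overlapped, and so did the 2 G9a hairpins. Library preparation did not mark strand, and the short antisense gene RP11-288L9.4 lies inside IFI6, with 699 counts in all 24 libraries.

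IFI44 and IFI44L are neighbours on chromosome 1 (hg19, chr1:79115481-79129763 and chr1:79085607-79111830, both on the plus strand). Across the 8 group means, each was the member most like the other (Pearson r = 0.978 on log2(CPM + 0.1), a description over 8 groups). IFI44 stood at 33.1, 33.4 and 32.1 CPM with SUV39H1 hairpin 2 and 3.94, 3.67 and 3.95 CPM with hairpin 4, against 1.02, 1.11 and 0.981 CPM with scrambled. All 6 SUV39H1 libraries lay above scrambled, and the log2 fold changes were 4.88 ± 0.094 and 1.75 ± 0.12 (SE; adjusted p = 1.89e-24 and 2.79e-12, edgeR). Inhibitor libraries stood at 2.92, 2.01 and 2.15 CPM in DMSO, 4.07, 4.13 and 4.22 CPM at 2 µM and 8.33, 8.43 and 7.07 CPM at 4 µM, again without overlap. With the G9a hairpins every library lay below scrambled, at 0.686 to 0.782 CPM for hairpin 2 and 0.568 to 0.800 CPM for hairpin 3, and the log2 fold change of their mean was -0.56 ± 0.15 (adjusted p = 0.00283, edgeR). For single hairpins this call was lost without scrambled replicate 2, at -0.48 for hairpin 2 and -0.53 for hairpin 3, and for hairpin 3 also without its replicate 3, at -0.45.

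IFI44L was nearly silent in the controls, with 3, 2 and 1 counts in DMSO and 0, 4 and 2 counts with scrambled. At 2 µM it had 20, 16 and 18 counts and at 4 µM 74, 34 and 64. The 4 µM group held 25.5 times its DMSO share (95% counting interval 11.5 to 70.3) and the 2 µM group 8.77 times (3.78 to 25). With SUV39H1 hairpin 2 it reached 375, 299 and 344 counts, a ratio to scrambled of 195 (89.3 to 533), and with hairpin 4 it reached 15, 19 and 19 counts, a ratio of 7.85 (3.38 to 22.4). By edgeR, the adjusted p was 0.000447 at 2 µM, 7.58e-09 at 4 µM, 7.79e-18 with SUV39H1 hairpin 2 and 0.000126 with hairpin 4. IFI44L passed the filter on low counts only through the groups in which it was high, which are those tested. The intervals cover counting error only and take each count as 1 independent read. Of all counts of at least 20, 62.8% were even, and the intervals are too narrow if reads of a pair were counted separately, which was not tested. With the G9a hairpins only 1 of 6 libraries held a count, against 2 of 3 scrambled libraries, and the lower call for the mean (adjusted p = 0.0276, edgeR) was lost without scrambled replicate 2 (adjusted p = 0.191) or 3 (0.0529).

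IFI35 rose in every perturbed group, the G9a hairpins included. It stood at 5.19, 5.57 and 5.25 CPM with G9a hairpin 2 and 5.3, 5.86 and 5.74 CPM with hairpin 3, against 2.89, 2.76 and 3.33 CPM with scrambled. No library overlapped, and the mean of the hairpins gave a log2 fold change of 0.86 ± 0.080 (SE; adjusted p = 1.38e-09, edgeR). SUV39H1 hairpin 2 gave 19.9, 21.3 and 20.1 CPM and hairpin 4 gave 10.6, 12.0 and 10.7 CPM, or 2.68 ± 0.078 and 1.76 ± 0.082 on the log2 scale. Its level was 4.09, 3.86 and 4.79 CPM in DMSO, 6.25, 6.06 and 6.15 CPM at 2 µM and 9.55, 8.38 and 9.31 CPM at 4 µM. The 4 µM fold change of 1.09 ± 0.079 and that of the G9a hairpins differed by 0.23 on the log2 scale, with a 95% interval of -0.02 to 0.47 and an adjusted p of 0.114 by edgeR, which passed the threshold without 4 µM replicate 2 (0.0431) or DMSO replicate 3 (0.0247). IFI35 lies on chromosome 17 (hg19, chr17:41158742-41166473, plus strand), 149 bases from VAT1 on the other strand. VAT1 was not called at 4 µM (0.05), with the G9a hairpins (0.04) or with SUV39H1 hairpin 2 (0.02), and it was higher by 0.15 with SUV39H1 hairpin 4.

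MX1 and MX2 lie side by side on chromosome 21 (hg19, chr21:42792231-42831141 and chr21:42733870-42781317, both on the plus strand). MX1 was called in the SUV39H1 knockdown but in no comparison of an inhibitor dose with DMSO or of G9a hairpins with scrambled. It stood at 4.69, 2.98 and 4.05 CPM with SUV39H1 hairpin 2 and 2.25, 2.67 and 2.52 CPM with hairpin 4, against 1.26, 1.03 and 1.34 CPM with scrambled. The log2 fold changes were 1.63 ± 0.14 and 0.92 ± 0.15 (SE; adjusted p = 7.7e-11 and 5.83e-06, edgeR), and no SUV39H1 library overlapped scrambled. In the inhibitor arm it stood at 1.73, 1.76 and 2.22 CPM in DMSO, 2.46, 2.22 and 2.25 CPM at 2 µM and 2.40, 2.36 and 2.14 CPM at 4 µM. The 4 µM libraries overlapped DMSO, and the log2 fold change was 0.27 with a 95% interval of -0.02 to 0.55. With the G9a hairpins the interval ran from -0.13 to 0.49 around 0.18.

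MX2 was expressed far above MX1 per length, at 8.13 and 0.141 CPM per kilobase with scrambled, and it moved least of the 10. It stood at 125, 122 and 129 CPM in DMSO, 134, 138 and 138 CPM at 2 µM and 138, 142 and 149 CPM at 4 µM. All treated libraries lay above DMSO. The log2 fold change was 0.12 ± 0.040 at 2 µM (SE; adjusted p = 0.0582, edgeR) and 0.19 ± 0.040 at 4 µM (adjusted p = 0.000733). Same-numbered libraries of 2 µM and DMSO deviated together (r from 0.239 to 0.63), but the check given with the methods cannot establish pairing. With a replicate block shared by all groups, the 2 µM rise was 0.124 and passed (adjusted p = 0.025, edgeR). SUV39H1 hairpin 2 held 102, 101 and 109.6 CPM and hairpin 4 held 105, 107 and 104 CPM, against 105, 105 and 112 CPM with scrambled. These groups overlapped in CPM, and the falls of 0.13 and 0.15 on the log2 scale that passed with TMM scaling (adjusted p = 0.00649 and 0.002, edgeR) came to 0.04 and 0.02 and did not pass with library totals alone. With the G9a hairpins the log2 fold change was -0.06 with a 95% interval of -0.13 to 0.01.

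RSAD2 (hg19, chr2:7005937-7038370, plus strand) had the same order as IFI35 for its 3 highest groups. It reached 11.7, 12.0 and 12.4 CPM with SUV39H1 hairpin 2 and 6.73, 6.77 and 6.53 CPM with hairpin 4, against 1.81, 1.49 and 1.39 CPM with scrambled. The G9a hairpins, at 2.79, 2.46 and 2.27 CPM for hairpin 2 and 2.64, 2.35 and 2.66 CPM for hairpin 3, also lay above every scrambled library. The log2 fold changes were 2.87 ± 0.10, 1.98 ± 0.11 and, for the mean of the G9a hairpins, 0.70 ± 0.11 (SE; adjusted p = 8.61e-19, 2.04e-14 and 1.12e-05, edgeR). In the inhibitor arm RSAD2 stood at 2.63, 1.70 and 2.32 CPM in DMSO, 2.81, 2.42 and 2.83 CPM at 2 µM and 3.25, 3.77 and 3.34 CPM at 4 µM. Only the 4 µM group cleared DMSO, by 0.62 ± 0.11 on the log2 scale (adjusted p = 0.000197), while 2 µM gave 0.25 ± 0.12 (adjusted p = 0.252). CMPK2, a mitochondrial nucleotide kinase, overlaps the 5′ end of RSAD2 on the other strand (hg19, chr2:6980701-7006766), so reads in the overlap cannot be told apart. CMPK2 averaged 106 ± 3.50 and 36.8 ± 0.887 CPM with SUV39H1 hairpins 2 and 4, against 12.5 ± 0.525 CPM with scrambled (SD, n = 3 each), and its log2 fold change with the G9a hairpins was 0.0047 ± 0.046, where RSAD2 rose.

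BST2 (hg19, chr19:17513748-17516457, minus strand) was the most abundant of the 10 per length with scrambled and in DMSO, at 196 and 207 CPM per kilobase, and rose with dose. It stood at 222, 235 and 239.8 CPM in DMSO, 286, 301 and 297 CPM at 2 µM and 346, 342 and 356 CPM at 4 µM. The 3 groups did not overlap, and the log2 fold change was 0.34 ± 0.038 at 2 µM and 0.59 ± 0.038 at 4 µM (SE; adjusted p = 3.29e-07 and 3.8e-12, edgeR). SUV39H1 hairpin 2 gave 382, 391 and 380.0 CPM and hairpin 4 gave 248, 241 and 239.5 CPM, against 218, 211 and 228 CPM with scrambled. Hairpin 2 gave 0.72 ± 0.038 on the log2 scale. Hairpin 4 gave 0.02 ± 0.038 (adjusted p = 0.663, edgeR) with TMM scaling and 0.15 (adjusted p = 0.000945) with library totals alone, although each of its libraries lay above scrambled in CPM. The G9a hairpins, at 204, 197 and 197 CPM for hairpin 2 and 197, 206 and 199 CPM for hairpin 3, lay below every scrambled library, with a log2 fold change of -0.15 ± 0.033 (adjusted p = 0.000573). The gene CTD-2521M24.9 starts 46 bases from BST2 on the other strand, and its log2 fold changes were 0.57 at 4 µM, 0.88 and 0.65 with SUV39H1 hairpins 2 and 4, and -0.51 with the G9a hairpins, all called by edgeR.

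XAF1 (hg19, chr17:6658766-6678966, plus strand) was at or near 0 in every group but the SUV39H1 knockdown. SUV39H1 hairpin 2 held 29, 17 and 22 counts and hairpin 4 held 8, 12 and 5, against 1, 2 and 2 with scrambled. The ratio to scrambled was 15.6 (95% counting interval 6.38 to 49.7) for hairpin 2 and 4.45 (1.67 to 14.9) for hairpin 4, and both rises passed the edgeR test (adjusted p = 8.32e-08 and 0.00537). XAF1 passed the filter on low counts only because of the SUV39H1 hairpin 2 libraries, so the group tested is the one that kept it. At 4 µM it held 2, 4 and 3 counts, against 0, 1 and 0 in DMSO, a ratio of 7.99 with an interval of 1.11 to 350.2 and an adjusted p of 0.0652 by edgeR, which came to 0.0335 without DMSO replicate 2. No count was found with either G9a hairpin, which allows up to 0.0227 CPM for hairpin 2 and 0.0232 CPM for hairpin 3 (3 counts over the 3 libraries). The calls against the 5 scrambled counts were lost for both hairpins without scrambled replicate 2 or 3 (adjusted p of 0.0525 to 0.0597, edgeR), and without any 1 library of the hairpin.

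**Figure D3:**
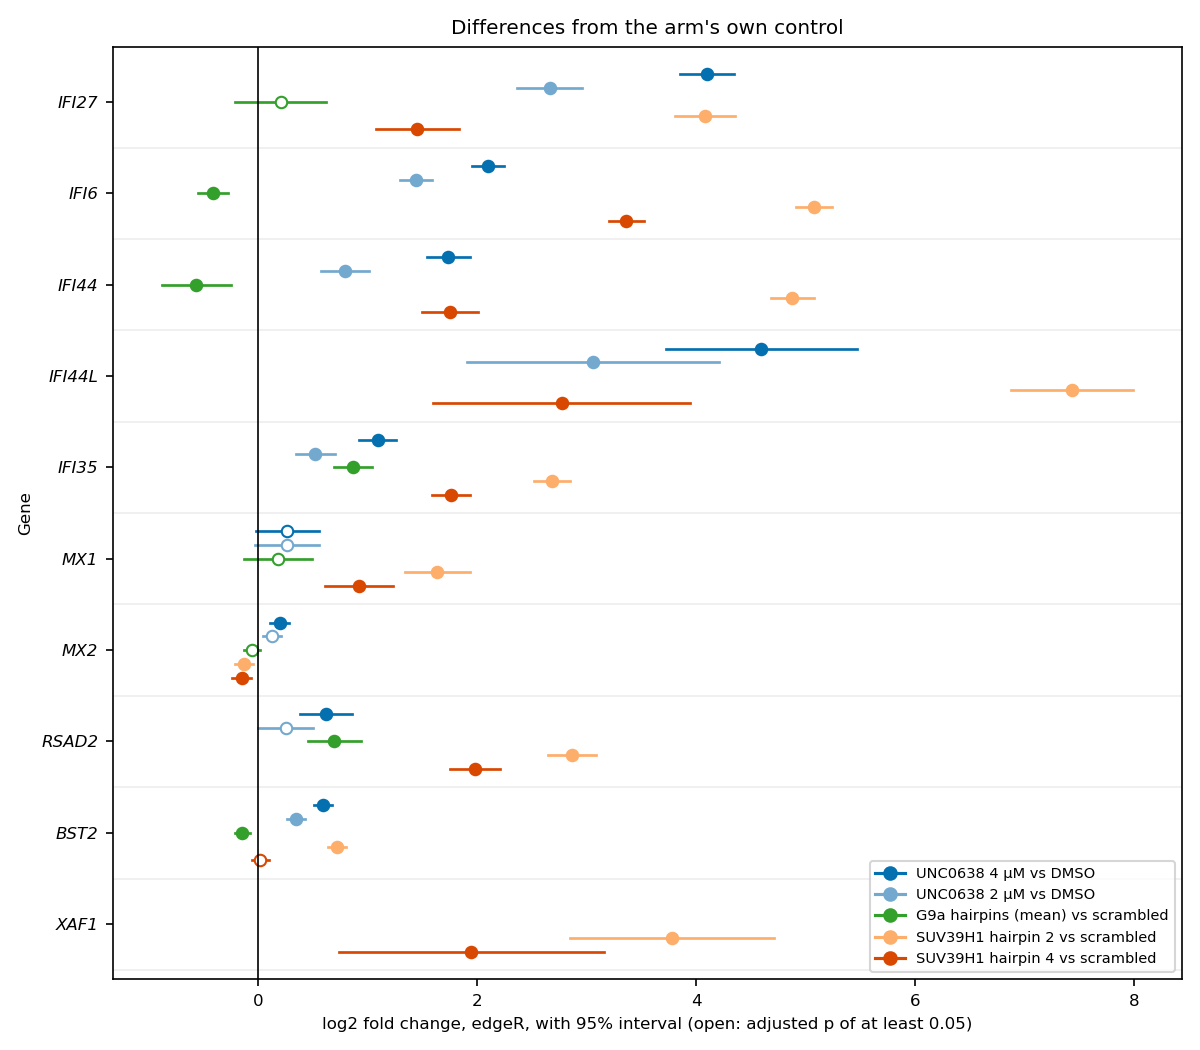
Log2 fold changes of the 10 genes with their 95% intervals (x axis, edgeR) in the 2 doses against DMSO and the knockdowns against scrambled; filled points passed an adjusted p of 0.05 and open points did not. Of 50 values 4 are not drawn because a group held 3 counts or fewer. SUV39H1 hairpin 2 gives the value furthest to the right for IFI6, IFI44, IFI44L, IFI35, MX1, RSAD2, BST2 and XAF1, IFI27 lies at 4.10 at 4 µM and 4.08 with SUV39H1 hairpin 2, and MX2 lies between -0.15 and 0.19 throughout.

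The fold changes at 4 µM and with the hairpins were then compared with each other, each against its own control. The 4 µM response exceeded that of the G9a hairpins in 7 of the 10 genes and fell below it in none, where 22.5% of all genes were higher and 22.3% lower. The 7 include IFI44L and XAF1, whose differences rest on few or no counts with the G9a hairpins, and XAF1 was not called at 4 µM itself. The difference was 3.90 ± 0.27 on the log2 scale for IFI27 and 2.51 ± 0.093 for IFI6 (SE; adjusted p = 1.14e-11 and 2.66e-17, edgeR). For RSAD2 it was -0.08, with a 95% interval of -0.42 to 0.26, and for MX1 0.08 (-0.34 to 0.51). Against the mean of the SUV39H1 hairpins, the 4 µM response was larger for 3 genes (IFI27, MX2 and BST2) and smaller for 5 (IFI6, IFI44, IFI35, MX1 and RSAD2), where 28.1% of all genes were higher and 29.6% lower. For IFI27 it was larger by 1.34 ± 0.24, and for IFI6 the difference was -2.12 ± 0.093. That of BST2, 0.22 ± 0.050, did not pass with library totals alone (0.105, adjusted p = 0.0649).

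The 2 controls were not at the same level. Scrambled was below DMSO in 6 of the 10 genes and above it in none, where 14.9% of all genes were higher and 16.5% lower. IFI6 fell to 35.6 ± 1.86 CPM with scrambled, against 96.6 ± 8.13 CPM in DMSO (SD, n = 3 each; log2 fold change -1.41 ± 0.072 SE, adjusted p = 5.5e-14, edgeR). IFI44 fell by 1.16 ± 0.14 on the log2 scale, MX1 by 0.65 ± 0.16, RSAD2 by 0.52 ± 0.13, IFI35 by 0.49 ± 0.096 and MX2 by 0.20 ± 0.040. IFI27, IFI44L, BST2 and XAF1 were not called. For MX2 this compares with 0.19 ± 0.040 at 4 µM, its largest called change within an arm.

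The remaining interferon-pathway genes, in lists chosen for their roles, were read in the same fit. Beside their counts, 10.2% of all genes rose and 9.73% fell at 4 µM, 3.83% and 3.34% at 2 µM, 34.5% and 32.6% with SUV39H1 hairpin 2, 31.8% and 29.2% with its hairpin 4, and 25% and 24.9% with the mean of the G9a hairpins. Of 64 other effectors tested, 51 rose and none fell at 4 µM, 38 rose and none fell at 2 µM, 59 rose and 1 fell with SUV39H1 hairpin 2, and 53 rose and 2 fell with hairpin 4. With the mean of the G9a hairpins 27 rose and 21 fell. OAS1, an antiviral oligoadenylate synthetase, PARP9 and the macrophage lectin SIGLEC1 had the smallest p at 4 µM, with log2 fold changes of 2.02, 1.46 and 3.08. Their values with SUV39H1 hairpin 2 were 3.98, 2.67 and 5.0, and with the G9a hairpins -0.24, -0.27 and, not called, -0.12. Of 11 sensors, 7 rose at 4 µM, among them DDX58, the RNA sensor RIG-I, by 1.24, EIF2AK2, the double-stranded RNA kinase PKR, by 0.97 and IFIH1, the RNA sensor MDA5, by 0.84. With SUV39H1 hairpin 2, 8 sensors rose and 1 fell. The G9a hairpins gave 3 higher and 4 lower, near the shares over all genes.

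Among 10 STAT and IRF factors, 5 rose and 2 fell at 4 µM. IRF7, which drives interferon genes, rose by 1.32 ± 0.060 on the log2 scale, IRF9 by 0.73 ± 0.052, STAT2 by 0.59 ± 0.053 and IRF2 by 0.22 ± 0.052, while IRF8 (-0.27) and IRF1 (-0.20) fell (SE; all called by edgeR). With SUV39H1 hairpin 2, 8 rose and 1 fell. IRF7 rose by 3.34 ± 0.063, STAT2 by 2.40 ± 0.055, IRF9 by 2.29 ± 0.051 and IRF1 by 1.54 ± 0.058, with IRF2, STAT3 and IRF5 below 1. IRF8, a myeloid lineage factor, fell by 0.85. With the mean of the G9a hairpins 6 rose and 1 fell. IRF9 averaged 5.67 ± 0.231 and 5.57 ± 0.236 CPM with G9a hairpins 2 and 3, against 8.02 ± 0.480 CPM with scrambled (SD, n = 3 each; log2 fold change -0.53, adjusted p = 5.42e-09, edgeR), while STAT2 (0.43) and IRF1 (0.57) rose.

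Of 8 receptors and kinases tested, IFNGR1 rose by 0.30 and TYK2 fell by 0.19 at 4 µM, and IFNAR1 (0.06) and IFNAR2 (0.02) were not called. With SUV39H1 hairpin 2, 7 rose and none fell, IL10RB by 1.09, JAK2 by 0.70, IFNAR2 by 0.69, IFNGR1 by 0.66, JAK1 by 0.46, IFNAR1 by 0.43 and TYK2 by 0.28. Of 10 inhibitors, USP18, which restrains the receptor, rose by 1.09 at 4 µM and no other was called, whereas 6 fell and none rose with the G9a hairpins, USP18 by 0.29. Only IFNB1 of 21 interferon genes passed the filter on low counts. It averaged 0.72 CPM with SUV39H1 hairpin 2, 0.20 with hairpin 4 and less in the other groups. It was thus kept mainly through the hairpin 2 libraries, the group whose rise is then tested. It held 80 counts with SUV39H1 hairpin 2 and 29 with hairpin 4, against 12 with scrambled over 3 libraries each, and its rise passed for hairpin 2 (2.81 ± 0.36, adjusted p = 1.52e-07, edgeR) and not for hairpin 4 (0.95 ± 0.47, adjusted p = 0.0816). In the inhibitor arm it held 10 counts in DMSO, 20 at 2 µM and 24 at 4 µM, and was not called. The other 20 interferon genes held at most 28 counts each over all 24 libraries.

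**Figure D4:**
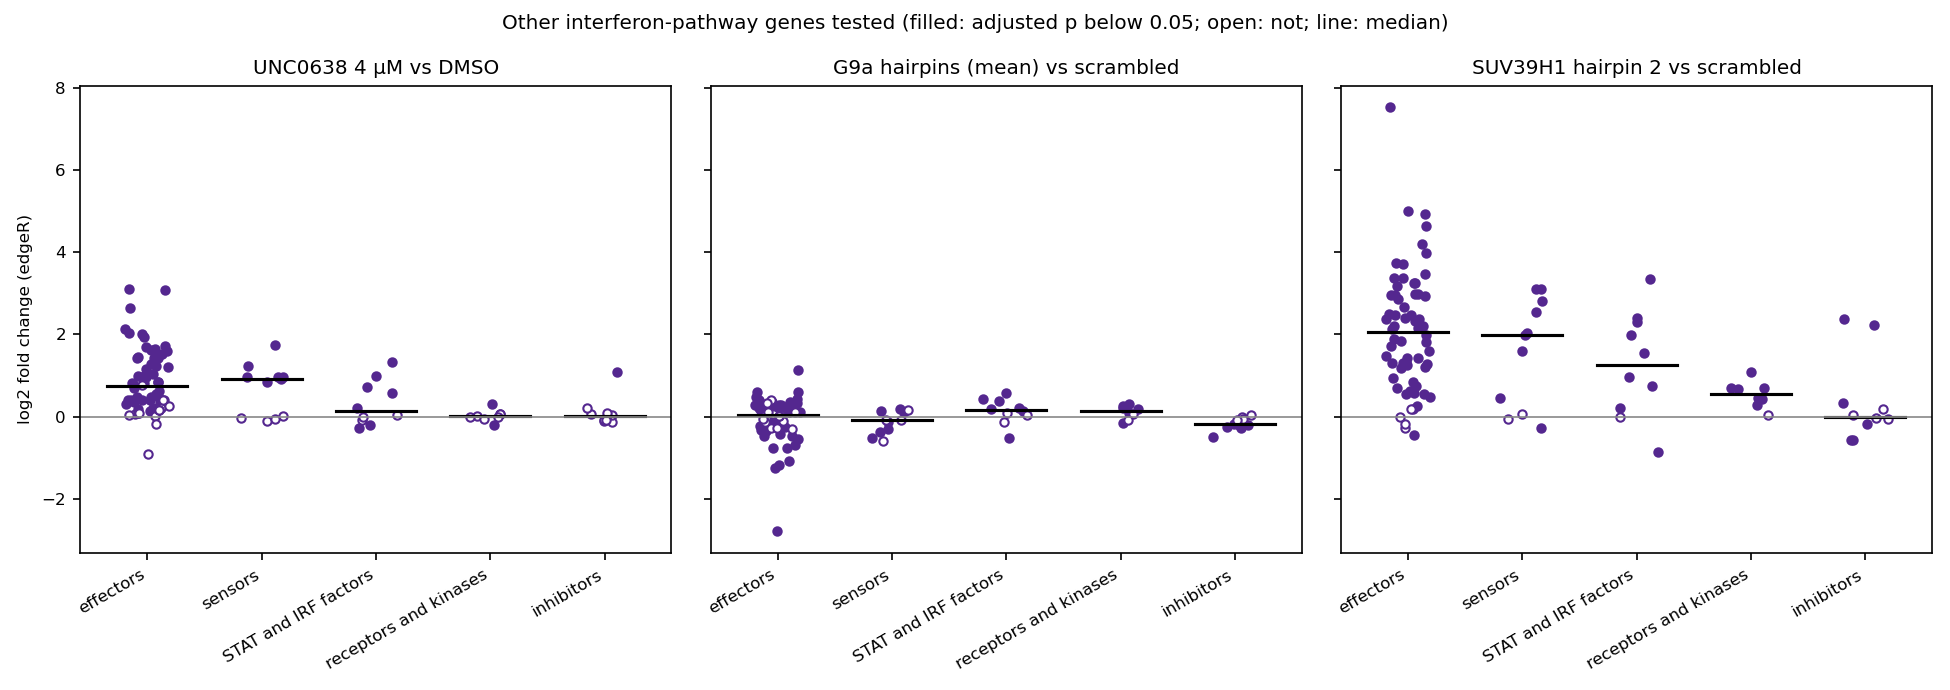
Log2 fold changes (y axis, edgeR) of the other interferon-pathway genes tested, by list, at 4 µM UNC0638 against DMSO (left), with the mean of the G9a hairpins against scrambled (middle) and with SUV39H1 hairpin 2 against scrambled (right); each point is a gene, filled where its adjusted p was under 0.05, and lines are medians. The effectors lie mostly above 0 on the left and right, with 51 and 59 of 64 called higher, and on both sides of 0 in the middle, with 27 higher and 21 lower.

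The genes whose pattern over the 8 groups was most like that of the 10 were searched among 13562 genes averaging at least 2 CPM. The pattern was the mean of the standardised log2(CPM + 0.1) profiles of the 9 members that averaged at least 0.5 CPM. Among the closest were OAS3 (r = 0.998), ISG15 (0.996), IFI16 (0.995), IFIT3 (0.992) and RP1-71H24.1 (0.991), given as a description over 8 points that share their libraries. OAS3, an oligoadenylate synthetase, averaged 509 ± 12.2 and 196 ± 6.70 CPM with SUV39H1 hairpins 2 and 4, 66.5 ± 1.89 and 66.0 ± 2.51 CPM with G9a hairpins 2 and 3 and 61.1 ± 1.88 CPM with scrambled (SD, n = 3 each). In the inhibitor arm it averaged 92.6 ± 6.14 CPM in DMSO, 185 ± 4.04 at 2 µM and 286 ± 10.9 at 4 µM. Of the members, IFI44 (0.981), IFI6 (0.976) and IFI44L (0.967) followed the pattern most closely, RSAD2 (0.815) and IFI35 (0.875) less so, and MX2 (0.338) least. IFI35 and RSAD2, the 2 genes that rose with the G9a hairpins, were most like each other (0.974).

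The nearest gene on either side of each member that passed the filter on low counts was read in the same fit. IFI27L1, a relative of IFI27 that lies 990 bases away, fell by 0.31 at 4 µM and rose by 0.73 with SUV39H1 hairpin 2, and IFI27L2 on the other side was not called in either (0.06 and 0.11). RPL27, next to IFI35, was not called at 4 µM (-0.0042) and fell by 1.59 with SUV39H1 hairpin 2, the only neighbour called lower there. With that hairpin AC017076.5 and RNF144A beside RSAD2 rose by 3.26 and 0.41, and CTD-2521M24.5 and CTD-2521M24.9 beside BST2 by 2.84 and 0.88. RP11-288L9.1 and FAM76A beside IFI6 rose by 2.06 and 0.88, and AC027763.2 beside XAF1 by 0.37. The remaining neighbours were not called with it. At 4 µM PTGFR, beside IFI44L, rose by 1.35 and CTD-2521M24.9 by 0.57. AC017076.5, CTD-2521M24.5, RP11-288L9.1 and PTGFR averaged only 0.167, 0.0866, 0.135 and 0.171 CPM over all libraries. Genes this low can pass the filter on low counts through the groups in which they are high, which may be those tested. The SE of the first 3 with SUV39H1 hairpin 2 was 0.425, 0.51 and 0.625. In RNA from whole cultures, fewer cells that express a gene and less RNA of it per cell cannot be told apart.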

How the data were processed

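Counts were used as deposited by the authors, whole numbers per gene name, and the submitters' processing notes name STAR, featureCounts and hg19. For the versions and the counting of read pairs, nothing is stated in the sources used here. Per the labels' protocols the preparation was TruSeq RNA v2, which does not mark strand, so overlapping genes cannot be told apart. The deposited other value, a summed length per gene name in bases, was used for levels per kilobase.

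CPM is a count per 1000000 of the summed gene counts of its library. Genes kept by filterByExpr (minimum count 10, minimum total 15), 20147 of 55773, were scaled with TMM and fitted with edgeR 4.0.16 in R 4.3.3 (glmQLFit, glmQLFTest) over all 24 libraries with 1 mean per group. The 15 comparisons were contrasts of these means, 2-sided, called at a Benjamini-Hochberg adjusted p under 0.05. The SE is the log2 fold change divided by the square root of F. The common dispersion was 0.00215, a coefficient of variation of 4.63%. Members and gene lists were chosen with earlier results of these data known. All 10 members are named, and of the lists the interferons, receptors and STAT and IRF factors or the 3 smallest p at 4 µM.

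Alternatives were RLE scaling, library totals, DESeq2 1.42.0, no low-count filter, the compared groups alone, a replicate block and each library left out. Same-numbered libraries of 2 groups were checked for deviating together. In 2 of 28 pairs of groups, 2 µM with DMSO (r from 0.239 to 0.63) and SUV39H1 hairpin 4 with scrambled, all 3 correlations passed 0.1. Over all groups, 44 of 84 same-numbered pairs of libraries passed 0.1, so the check cannot establish pairing. The replicate block fits 1 effect per number, shared by all groups. Counting intervals are exact at 95%. The deposited table of transposons was not used here, and some results of the marker and pathway lists are not reported here. Sequences are RefSeq's.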

Additional observations from a re-analysis of the deposited data

Results flagged for a closer look

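The response to 4 µM UNC0638 over DMSO differed from that of the G9a hairpins over scrambled, in the test of the difference itself (edgeR), for 7 of the 10 genes. Over all genes, 22.5% were higher and 22.3% lower in this test. On the log2 scale the 4 µM response was larger by 3.901 for IFI27, 2.51 for IFI6, 2.301 for IFI44, 0.739 for BST2 and 0.254 for MX2. For IFI44L (adjusted p = 9.72e-05) and XAF1 (adjusted p = 0.00103) the difference passed too, but the G9a hairpins held 1 and 0 counts, so that its size is not given. IFI6, IFI44 and BST2 were higher at 4 µM and lower with the G9a hairpins than in their controls.

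Against the mean response to the SUV39H1 hairpins, 8 of the 10 genes differed, where 28.1% of all genes were higher and 29.6% lower. The 4 µM response was larger for IFI27 by 1.335, MX2 by 0.335 and BST2 by 0.223, and the difference was -2.122 for IFI6, -1.808 for RSAD2, -1.58 for IFI44, -1.13 for IFI35 and -1.01 for MX1. With library totals alone, the BST2 difference did not pass (0.105, adjusted p = 0.0649, edgeR). Nor did the fall of MX2 with the SUV39H1 hairpin mean then pass (-0.03, adjusted p = 0.434, edgeR). The mean of the SUV39H1 hairpins stands for 2 groups that themselves differed in 9 of the 10 genes. Of all genes, 20.9% were higher and 22% lower with hairpin 2 than with hairpin 4.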

How the results depend on the processing

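Of 2085 fold changes of the 10 genes recomputed under the alternatives, 2052 kept their call, 25 no longer passed and 7 newly passed. The remaining 1, called in the main fit, turned its direction. A value called in neither fit counts as kept even if its sign changed, and so does a value without an adjusted p. RLE scaling and no low-count filter changed no call of a member, and the compared groups alone changed none of 135, with 15 values of IFI44L and XAF1 not computed because the gene did not pass the filter on low counts there. For G9a hairpins 2 and 3 against scrambled, neither gene could then be tested. With library totals alone, MX2 turned from 0.081 to -0.015 for the G9a against the SUV39H1 hairpins. The 7 members called for G9a hairpin 3 came to 4 to 7 when each library was left out. Over all genes, 4 µM against DMSO called 4012 genes and 1993 with the compared groups alone, 2 µM called 1444 and 717, and 4 µM against 2 µM called 371 and 236. At 2 µM the count was 2197 without DMSO replicate 1, and between the doses it was 243, 215 and 246 without 2 µM replicates 1, 2 and 3 and 224 without 4 µM replicate 2. G9a hairpin 2 against 3 called 2 genes, 11 with no low-count filter, 1 with the compared groups alone and 0 or 1 without 5 of the single libraries. The replicate block, shared by all groups, changed 1 call of 150, that of MX2 at 2 µM (0.124, adjusted p = 0.025, edgeR). The check given with the methods cannot establish that the numbers mark pairs: 14 of 24 libraries correlated best with their own number. DESeq2 called the 2 µM rise of MX2 and lost XAF1 for G9a hairpin 2. Counts of 6 or fewer in IFI44L and XAF1 limit what their controls and G9a groups can show. The causes were not tested.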
